A study of Mus musculus with 12 samples.

Results

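Marker genes of the 2 main B-cell subsets of the mouse spleen were followed across 12 RNA libraries. The 10 genes chosen were 7 markers of marginal zone B cells (Cr2, Cd1d1, S1pr3, Myof, Plac8, Dtx1 and Cd9) and 3 markers of follicular B cells (Fcer2a, Cd55 and Ighd), picked by name as markers and matched to the gene symbols of the count table. The choice was made with earlier results of these data known. Of the 10 genes, 9 had a row among the 23282 rows of the table, and all 9 passed the filter on low counts that left 11857 genes. Ighd, which encodes the constant region of IgD, had no row and was not analysed here.

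The libraries came from B cells of the spleens of wild-type C57BL/6 mice aged 7 weeks, which the series description calls lupus-prone, in 4 groups of 3 libraries. The ODN+IM156 group received both agents, the ODN group CpG-ODN 1826 alone, the IM156 group IM156 alone, and the control group no treatment, with no vehicle named. CpG-ODN 1826 is a synthetic class B oligodeoxynucleotide whose unmethylated CpG motifs are sensed by the endosomal receptor TLR9, and it was injected into the peritoneum at 50 µg on days 1 and 3. IM156, an inhibitor of mitochondrial oxidative phosphorylation, was given by the same route, at 30 mg/kg, on day 0 and again on day 2. Spleens were collected on day 4. The labels name neither the sex of the mice nor the number of animals behind a library, so that p-values measure only the spread between these libraries, which may be technical.

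Most B cells of the spleen are follicular cells, which recirculate through B-cell follicles and carry CD23 (Fcer2a) and IgD. Marginal zone B cells stay at the border of the white pulp, carry high levels of the complement receptors CD21 and CD35 and of CD1d, depend on Notch2 signalling, and respond early to blood-borne microbes, among other ways through Toll-like receptors. On activation through TLR9, B cells of both subsets enter the cell cycle and can change the surface proteins by which the subsets are told apart.

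The libraries held 9650775 to 11532525 counts each, and the members had from 149 to 30472 counts in a library. Levels are given as CPM, counts relative to the library total scaled with TMM factors, as mean ± SD of 3 libraries. Libraries are named by group and replicate number. The 13 B-cell identity genes summed to 11400 to 11780 CPM in ODN+IM156, 11380 to 12040 CPM in ODN, 11460 to 11880 CPM in IM156 and 11280 to 12640 CPM in control libraries. ODN replicate 1 stood apart within its group, with 351 CPM of the proliferation gene Mki67 against 144 and 94.5 CPM in ODN replicates 2 and 3. Results of the members are therefore also given below without it where that matters. For the other genes named, fold changes without it are not given. In ODN replicate 3, Xist had 1 count, against 924 to 1320 CPM in the other 11 libraries, and in ODN replicate 2 the ribosomal RNA row Rn45s took 1.46% of the counts, against 4.78% to 9.63% elsewhere.

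The start regions of the members whose level passed the test in at least 1 comparison, and of Cr2, the classical surface marker of marginal zone B cells, are shown because members of the same subset did not move alike. Each is the RefSeq window of 300 bases (GRCm38.p6), from 250 bases before to 50 bases after the annotated transcription start, on the gene's own strand. RefSeq lists 2 starts for Plac8 and 3 for Fcer2a, of which the first listed is shown, since reads from transcript 3′ ends do not tell which start was used. Capitals mark the letters TGGGAA, a core bound by RBPJ, the DNA-binding partner of Notch receptors.
Plac8 promoter, chr5:100572156-100572455, minus strand: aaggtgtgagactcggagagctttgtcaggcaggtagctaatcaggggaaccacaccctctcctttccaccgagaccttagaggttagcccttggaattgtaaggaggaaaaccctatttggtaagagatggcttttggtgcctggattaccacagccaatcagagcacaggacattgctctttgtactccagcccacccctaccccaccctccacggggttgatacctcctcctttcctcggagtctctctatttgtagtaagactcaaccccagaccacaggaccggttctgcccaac
Cr2 promoter, chr1:195176670-195176969, minus strand: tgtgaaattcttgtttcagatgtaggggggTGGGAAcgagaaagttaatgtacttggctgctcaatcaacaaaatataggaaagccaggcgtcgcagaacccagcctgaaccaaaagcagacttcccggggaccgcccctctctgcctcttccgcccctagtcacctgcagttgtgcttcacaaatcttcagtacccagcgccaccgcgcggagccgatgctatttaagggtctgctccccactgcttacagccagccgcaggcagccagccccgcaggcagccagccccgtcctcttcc
S1pr3 promoter, chr13:51408368-51408667, plus strand: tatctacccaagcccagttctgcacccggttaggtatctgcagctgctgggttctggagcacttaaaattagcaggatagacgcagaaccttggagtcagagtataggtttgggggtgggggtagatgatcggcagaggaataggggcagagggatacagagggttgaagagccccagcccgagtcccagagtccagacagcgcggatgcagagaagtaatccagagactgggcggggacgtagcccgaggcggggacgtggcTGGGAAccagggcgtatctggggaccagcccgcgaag
Myof promoter, chr19:38043528-38043827, minus strand: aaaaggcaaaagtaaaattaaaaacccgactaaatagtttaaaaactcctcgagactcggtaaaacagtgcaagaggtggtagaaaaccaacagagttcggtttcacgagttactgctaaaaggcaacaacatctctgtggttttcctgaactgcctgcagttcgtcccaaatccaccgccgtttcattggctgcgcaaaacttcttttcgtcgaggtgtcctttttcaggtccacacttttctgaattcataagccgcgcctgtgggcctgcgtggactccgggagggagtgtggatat
Fcer2a promoter, chr8:3694125-3694424, minus strand: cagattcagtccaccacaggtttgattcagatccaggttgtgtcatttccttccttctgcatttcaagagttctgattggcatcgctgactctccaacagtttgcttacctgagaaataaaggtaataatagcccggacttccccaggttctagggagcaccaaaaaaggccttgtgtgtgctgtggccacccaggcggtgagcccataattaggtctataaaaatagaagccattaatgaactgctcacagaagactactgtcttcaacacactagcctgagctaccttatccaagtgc
Cd55 promoter, chr1:130462695-130462994, minus strand: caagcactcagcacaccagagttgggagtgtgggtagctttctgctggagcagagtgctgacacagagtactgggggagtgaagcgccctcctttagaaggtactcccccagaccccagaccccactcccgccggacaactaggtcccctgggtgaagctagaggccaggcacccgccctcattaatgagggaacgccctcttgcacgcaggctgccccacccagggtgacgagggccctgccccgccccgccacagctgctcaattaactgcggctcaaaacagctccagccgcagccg
The letters TGGGAA, read on both strands, were present in 6 of the 11 windows of the 8 members in the RefSeq table and in 25.6% of all 32851 windows. In the Cr2 window they began 220 bases before the start, and in the S1pr3 window they lay after it. They were not in the windows shown for Plac8, Myof, Fcer2a and Cd55, while both genes with several listed starts held them at another start. The interferon-stimulated response element and the STAT-type letters TTCNNNGAA were in 0 of the 11 windows, against 3.44% and 8.3% of all windows. The STAT6-type motif was in 2 of the 11, at starts of Plac8 and Fcer2a that are not shown, against 6.95% of all windows.

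With ODN, 1 marginal zone member rose and 2 fell, and both measured follicular members fell. In ODN against control libraries, edgeR's quasi-likelihood test called 5 of the 9 members at a Benjamini-Hochberg adjusted p below 0.05: Plac8 was higher, and S1pr3, Myof, Fcer2a and Cd55 were lower. The same test called 10.6% of all genes in this comparison, 7.34% (870) as higher and 3.25% (385) as lower. The ODN and control libraries did not overlap for 6 of the 9 members, Cd1d1 beside these 5, and for 24.4% of all genes. Scaling by library totals alone moved the split of called genes to 695 higher and 720 lower, with the same 5 members called in the same directions. The other 4 marginal zone members, Cr2, Cd1d1, Dtx1 and Cd9, did not pass the test. The median log2 fold change of the 7 marginal zone members was -0.37, against -0.005 over all genes, and 5 of the 7 values were negative; without ODN replicate 1 the median was -0.16. These are libraries of mixed B cells, in which fewer cells of a subset and less RNA of a gene per cell cannot be told apart.

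**Figure D1:**
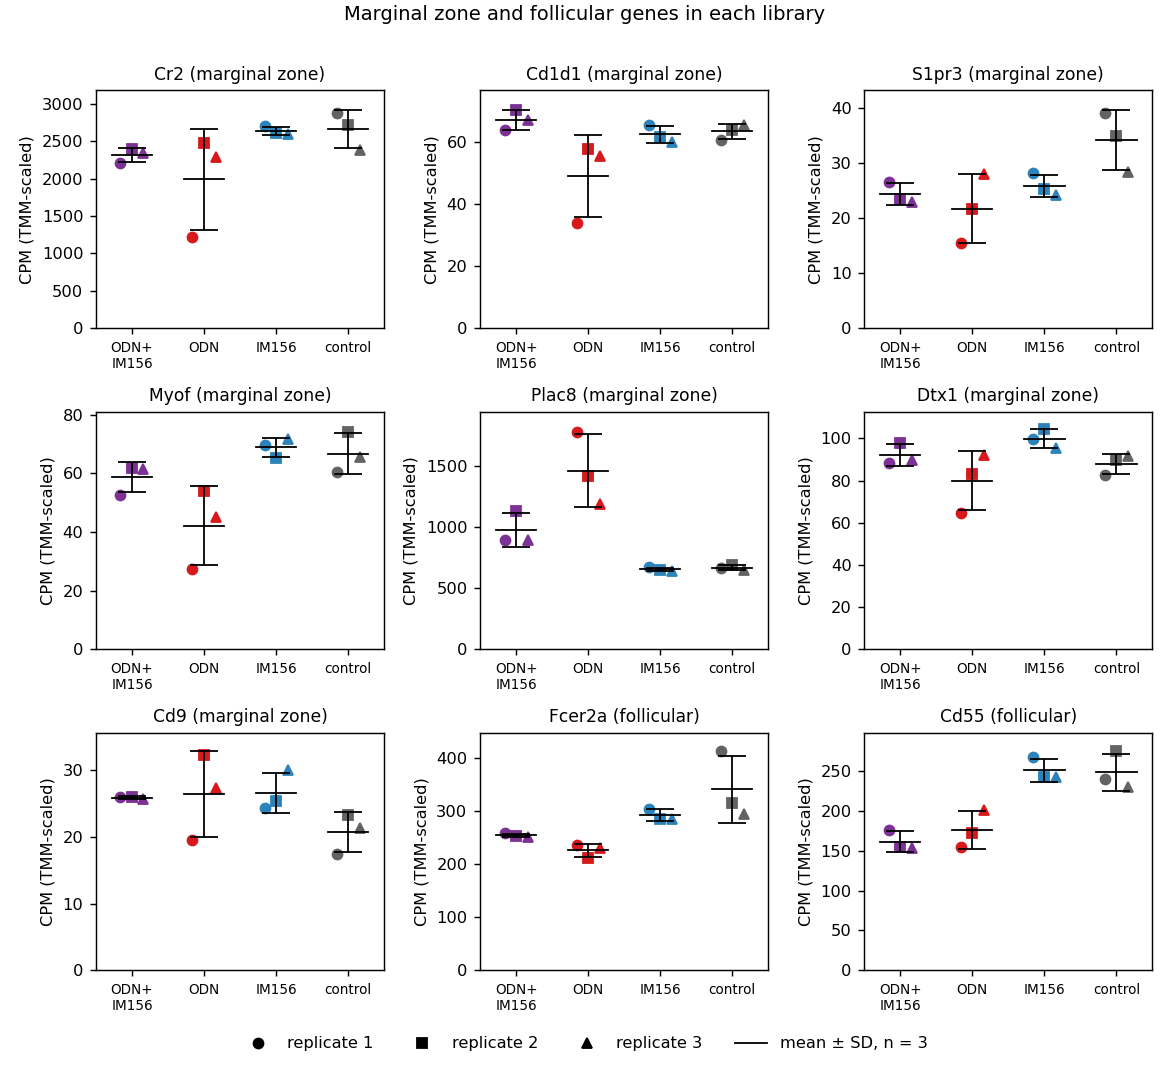
Level of each member in CPM (TMM-scaled, linear axis from 0) in every library, by group, with horizontal lines for the mean ± SD of 3 libraries. Plac8 is higher in all ODN+IM156 and ODN libraries than in any IM156 or control library, and Cd55 is lower in them; ODN replicate 1 (red circle) is the lowest library for Cr2, Cd1d1, S1pr3, Myof and Dtx1.

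Plac8, a small cysteine-rich protein made by marginal zone B cells and also by other leukocytes, was the member with the largest change. It had 895, 1134 and 890 CPM in ODN+IM156 libraries, 1776, 1416 and 1190 CPM in ODN libraries, 668, 649 and 639 CPM in IM156 libraries and 663, 690 and 650 CPM in control libraries. Every library with ODN lay above every library without it, every ODN library lay above every ODN+IM156 library, and the IM156 and control ranges overlapped. ODN libraries averaged 1461 ± 296 CPM and control libraries 668 ± 20.7 CPM (SD, n = 3 each), a 2.19-fold difference (log2 fold change 1.13, SE 0.12, edgeR adjusted p = 1.23e-05). Leaving out each of the 12 libraries in turn kept the call, with log2 fold changes of 0.96 to 1.25. In ODN+IM156 libraries Plac8 averaged 973 ± 140 CPM, which was higher than in control (log2 fold change 0.54, SE 0.12, edgeR adjusted p = 0.0228) and than in IM156 at 652 ± 15 CPM (0.58, SE 0.12, edgeR adjusted p = 0.0126).

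These smaller Plac8 differences depended on single libraries. Against control, the edgeR adjusted p became 0.162 without ODN+IM156 replicate 2 and 0.0697, 0.0828 and 0.0813 without control replicates 1, 2 and 3. Against IM156 it became 0.0934 without ODN+IM156 replicate 2, and 0.0696 and 0.0721 without IM156 replicates 2 and 3. Over the 12 refits that each left out 1 library, the log2 fold changes were 0.42 to 0.60 against control and 0.45 to 0.64 against IM156. Genes of other leukocytes, some of which can make Plac8, were summed beside it. The 18 monocyte and macrophage genes summed to 141 to 214 CPM in ODN+IM156, 108 to 162 CPM in ODN, 74.9 to 123.3 CPM in IM156 and 68.6 to 118 CPM in control libraries, with 6 of the 15 tested higher in ODN than in control. That comparison called 7.34% of all genes higher. The 12 dendritic cell genes summed to 67.4 to 105 CPM in ODN+IM156, 68.8 to 70.4 CPM in ODN, 37.4 to 56.2 CPM in IM156 and 49 to 61.8 CPM in control libraries, with 1 of the 10 tested, Itgax, higher in ODN than in control. The 12 neutrophil genes summed to 20.2 to 26.1 CPM in ODN+IM156, 24.5 to 89.9 CPM in ODN, 2.99 to 6.91 CPM in IM156 and 6 to 9.54 CPM in control libraries, where the 89.9 CPM stood in ODN replicate 1. The 12 NK cell genes summed to 11.88 to 19.15 CPM in ODN+IM156, 18.54 to 27.65 CPM in ODN, 4.09 to 6.36 CPM in IM156 and 4.63 to 6.29 CPM in control libraries. Of the 6 tested, Gzma and Il2rb were higher in ODN than in control, and of 5 T cell genes tested 0 were called there. S100a8 and S100a9, 2 of the 3 neutrophil genes tested, were also higher there. In ODN+IM156 against control, 5 monocyte and macrophage genes, 3 dendritic cell genes and 1 NK cell gene were higher, beside 1.25% of all genes. In that comparison 0 neutrophil and 0 T cell genes were called. The part of these other leukocytes in the Plac8 level was not tested.

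Cr2 encodes the complement receptors CD21 and CD35, which bind complement-coated antigen. It had 2217, 2396 and 2343 CPM in ODN+IM156 libraries, 1215, 2472 and 2286 CPM in ODN libraries, 2703, 2617 and 2599 CPM in IM156 libraries and 2883, 2723 and 2387 CPM in control libraries. A single library, ODN replicate 1, lay far below all the others, and the ODN and control ranges overlapped. ODN libraries averaged 1991 ± 678 CPM and control libraries 2664 ± 253 CPM (SD, n = 3 each), a log2 fold change of -0.42 with a 95% interval of -0.77 to -0.07 that did not pass the adjustment (edgeR adjusted p = 0.115). Without ODN replicate 1 the log2 fold change was -0.16, while without ODN replicate 2 or 3 it was -0.61 or -0.54 and passed the test (edgeR adjusted p = 0.0273 and 0.0411). With no filter on low counts it passed at the same size (edgeR adjusted p = 0.000564). In ODN+IM156 libraries, at 2319 ± 92.1 CPM, Cr2 lay below every IM156 library, at 2640 ± 55.6 CPM, but the fitted difference of -0.19 did not pass the test (edgeR adjusted p = 0.678). Stromal follicular dendritic cells also express Cr2. The 9 genes listed for them and for stroma summed to 27.5 to 31.3 CPM in ODN libraries and 15.7 to 32.8 CPM in control libraries. Of the 2 tested, Clu was higher in ODN than in control, where 7.34% of all genes were called higher. The other, Mfge8, was not called, with 13 ± 1.31 CPM in ODN and 11.6 ± 1.81 CPM in control libraries. The part of these cells in the Cr2 level was not tested.

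Cd1d1, which encodes the CD1d molecule that presents lipids to NKT cells, followed the same order of libraries within the ODN group. It had 64.1, 70.5 and 67.1 CPM in ODN+IM156 libraries, 33.9, 57.9 and 55.6 CPM in ODN libraries, 65.6, 61.7 and 60 CPM in IM156 libraries and 60.8, 63.9 and 65.6 CPM in control libraries. All 3 ODN libraries lay below all the other libraries. ODN libraries averaged 49.1 ± 13.3 CPM and control libraries 63.4 ± 2.4 CPM (SD, n = 3 each), and the log2 fold change of -0.37 (SE 0.14) did not pass the test (edgeR adjusted p = 0.107). Without ODN replicate 1 it was -0.16. Without ODN replicate 2 or 3 it was -0.50 or -0.47, and edgeR's adjusted p was 0.0443 or 0.0408; with no filter on low counts that p was 0.0234. The difference between ODN+IM156 and ODN libraries was 0.45 (edgeR adjusted p = 0.113). It was 0.25 without ODN replicate 1, and it passed without ODN replicate 3 (0.55, edgeR adjusted p = 0.032) and with no filter (edgeR adjusted p = 0.00655), but in none of the other 10 refits without another library.

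S1pr3 encodes a receptor for sphingosine 1-phosphate, the lipid whose gradient helps to keep marginal zone B cells in place. It had 26.6, 23.5 and 22.9 CPM in ODN+IM156 libraries, 15.5, 21.6 and 28 CPM in ODN libraries, 28.1, 25.3 and 24.2 CPM in IM156 libraries and 39.2, 34.8 and 28.4 CPM in control libraries. All 9 treated libraries lay below all 3 control libraries, and the treated groups overlapped each other. ODN libraries averaged 21.7 ± 6.26 CPM and control libraries 34.1 ± 5.43 CPM (SD, n = 3 each), a fall of 1.57-fold (log2 fold change -0.65, SE 0.17, edgeR adjusted p = 0.0195). This call was lost without control replicate 1 or 2 (edgeR adjusted p = 0.0845 or 0.0636) and without ODN replicate 1 or 2 (0.0837 or 0.0536), with log2 fold changes of -0.88 to -0.46 over the refits that each left out 1 library. It was lost also when only the ODN and control libraries were fitted (edgeR adjusted p = 0.0865). The differences of ODN+IM156 from control, -0.49, and of IM156 from control, -0.40, did not pass the test (edgeR adjusted p = 0.198 and 0.999).

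Myof encodes myoferlin, a membrane protein of vesicle fusion and repair whose transcript is high in marginal zone cells. It had 52.8, 62 and 61.4 CPM in ODN+IM156 libraries, 27.5, 53.9 and 45.2 CPM in ODN libraries, 69.7, 65.3 and 71.7 CPM in IM156 libraries and 60.5, 74.2 and 65.6 CPM in control libraries. The ODN libraries lay below all IM156 and control libraries, whereas the ODN+IM156 libraries reached into the control range. ODN libraries averaged 42.2 ± 13.5 CPM and control libraries 66.8 ± 6.93 CPM (SD, n = 3 each), a 1.58-fold fall (log2 fold change -0.66, SE 0.16, edgeR adjusted p = 0.0124). The log2 fold change was -0.43 without ODN replicate 1 and still passed the test. It did not pass without control replicate 2, at -0.57 (edgeR adjusted p = 0.0681), or when only these 6 libraries were fitted (edgeR adjusted p = 0.0705). The value of ODN+IM156 against control was -0.19 (edgeR adjusted p = 0.702), and that of ODN+IM156 against ODN was 0.47 (edgeR adjusted p = 0.153), or 0.25 without ODN replicate 1; with no filter on low counts it passed (edgeR adjusted p = 0.00415).

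Dtx1 encodes Deltex1, a ubiquitin ligase and known target of Notch signalling in marginal zone B cells. It had 88.1, 97.9 and 90 CPM in ODN+IM156 libraries, 64.8, 83 and 92.1 CPM in ODN libraries, 99.5, 104 and 95.5 CPM in IM156 libraries and 82.6, 89.7 and 91.7 CPM in control libraries. ODN replicate 1 was the lowest library, the other ODN libraries reached the control range, and all IM156 libraries lay above all control libraries. None of these differences passed edgeR's test: the log2 fold change was -0.14 in ODN against control (95% interval -0.37 to 0.09, edgeR adjusted p = 0.466) and 0.18 in IM156 against control (-0.04 to 0.41, edgeR adjusted p = 0.999). Cd9, a tetraspanin of marginal zone, B-1 and plasma cells and of platelets, had 25.9, 26 and 25.6 CPM in ODN+IM156 libraries, 19.6, 32.3 and 27.4 CPM in ODN libraries, 24.3, 25.3 and 29.9 CPM in IM156 libraries and 17.5, 23.3 and 21.3 CPM in control libraries. The ODN+IM156 and IM156 libraries lay above all control libraries, and ODN replicate 1 lay within the control range. In ODN against control the log2 fold change of Cd9 was 0.35 (edgeR adjusted p = 0.183), and without ODN replicate 1 it was 0.52 and passed the test (edgeR adjusted p = 0.0326).

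The 13 platelet genes listed, which do not include Cd9, summed to 135 to 183 CPM in ODN+IM156, 139 to 235 CPM in ODN, 66.2 to 69.4 CPM in IM156 and 48.8 to 73 CPM in control libraries, and 8 of the 11 tested were higher in ODN than in control, among them Pf4 and Itga2b. That comparison called 7.34% of all genes higher. Cd9 averaged 26.5 ± 2.99 CPM in IM156 libraries and 20.7 ± 2.96 CPM in control libraries. Whether platelet RNA had a part in the Cd9 level of the ODN libraries was not tested.

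Both measured follicular genes fell with ODN, and neither rested on ODN replicate 1. Fcer2a encodes CD23, the low-affinity receptor for IgE. It had 257.9, 253 and 251.2 CPM in ODN+IM156 libraries, 236, 212 and 230 CPM in ODN libraries, 304, 285 and 286 CPM in IM156 libraries and 412, 316 and 294 CPM in control libraries. All ODN libraries lay below all ODN+IM156 libraries, which lay below all IM156 and control libraries; control replicate 1 was the highest. ODN libraries averaged 226 ± 12.2 CPM and control libraries 341 ± 62.7 CPM (SD, n = 3 each), a 1.51-fold fall (log2 fold change -0.59, SE 0.10, edgeR adjusted p = 0.00104), and the call held in all 12 refits without 1 library, at -0.69 to -0.43. In ODN+IM156 against control the log2 fold change was -0.42 (SE 0.10, edgeR adjusted p = 0.0416). This call was lost without control replicate 1 (log2 fold change -0.26, edgeR adjusted p = 0.149) or control replicate 2 (edgeR adjusted p = 0.0716). It was lost also without any single IM156 replicate (edgeR adjusted p = 0.0578 to 0.0727) or ODN+IM156 replicate (0.119 to 0.184). Of the 451 stretches of 50 bases in the last 500 bases of the Fcer2a transcript, 8.4% also stand in transcripts of other genes, while those of the other 8 members stand in none.

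Cd55 encodes decay-accelerating factor, a surface inhibitor of complement. It had 176, 154 and 153 CPM in ODN+IM156 libraries, 155, 172 and 201 CPM in ODN libraries, 268, 242 and 242 CPM in IM156 libraries and 240, 275 and 230 CPM in control libraries. The 6 libraries with ODN lay below the 6 without it, and within each of these sets the groups overlapped. ODN libraries averaged 176 ± 23.6 CPM and control libraries 248 ± 23.5 CPM (SD, n = 3 each), with a log2 fold change of -0.49 (SE 0.10, edgeR adjusted p = 0.00345). ODN+IM156 libraries averaged 161 ± 12.9 CPM and IM156 libraries 250 ± 14.9 CPM; the log2 fold change was -0.63 against IM156 (SE 0.10, edgeR adjusted p = 0.00113) and -0.62 against control (SE 0.10, edgeR adjusted p = 0.00161). All of these Cd55 calls held in each of the 12 refits without 1 library, over which the log2 fold changes lay between -0.70 and -0.41. Cd55b, which encodes a related form, had 8.72 ± 1.33 CPM in ODN libraries and 13 ± 1.7 CPM in control libraries, and its log2 fold change of -0.57 did not pass the test (edgeR adjusted p = 0.0716); averaged over both IM156 states it was lower with ODN (-0.66, edgeR adjusted p = 0.00323).

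**Figure D2:**
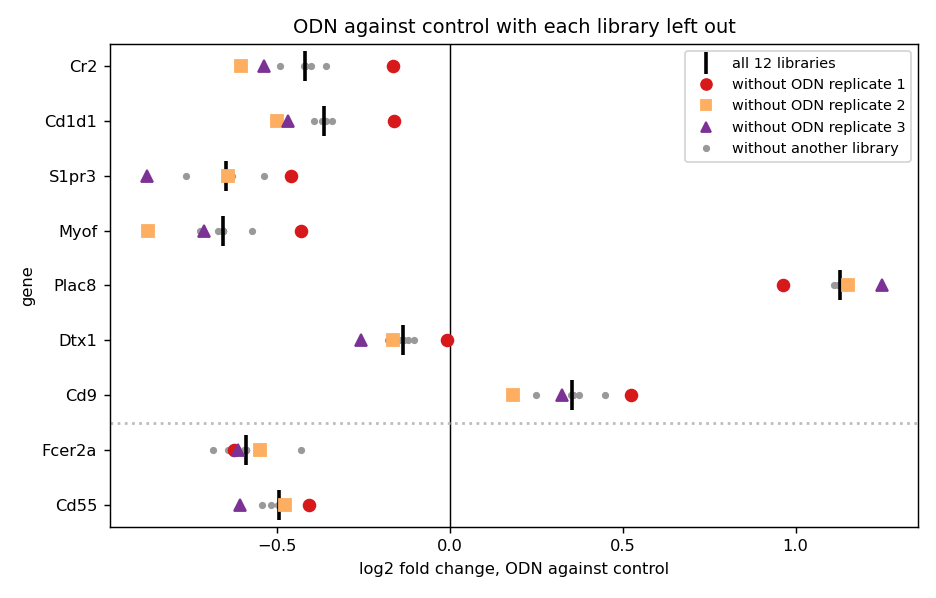
Log2 fold change of each member in ODN against control libraries with all 12 libraries (black bars) and with each library left out in turn (points; linear axis), marginal zone members above the dotted line and follicular members below it. Without ODN replicate 1 (red circles) Cr2 and Cd1d1 lie at -0.16 and Dtx1 near 0, while Plac8 stays at 0.96 and Fcer2a and Cd55 stay below -0.4.

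ODN replicate 1 lay farther from the control mean than the other ODN libraries for all 7 marginal zone members except Cd9. Relative to the control mean, its log2 level was -1.13 for Cr2, -0.91 for Cd1d1, -1.14 for S1pr3, -1.28 for Myof and 1.41 for Plac8. In ODN replicates 2 and 3 the same differences were -0.11 and -0.22 for Cr2, -0.13 and -0.19 for Cd1d1, -0.66 and -0.28 for S1pr3, -0.31 and -0.56 for Myof, and 1.08 and 0.83 for Plac8. Fcer2a showed no such gap, with -0.53 in ODN replicate 1 and -0.68 and -0.57 in the other ODN libraries. The same library had 98.6 CPM summed over the 5 B-1 cell genes listed, against 50.6 and 42.6 CPM in ODN replicates 2 and 3. It also had the highest Mki67 level of all 12 libraries, at 351 CPM, against 59.1 to 110 CPM in ODN+IM156, 24.8 to 44.3 CPM in IM156 and 29.9 to 68.1 CPM in control libraries; Mki67 was chosen after its values were seen. The part of these in the marginal zone levels was not tested.

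With ODN and IM156 together, the members called against control were Plac8, which was higher, and Fcer2a and Cd55, which were lower. That was 3 of 9 members, 1 higher and 2 lower, beside 1.59% of all genes, 1.25% higher and 0.337% lower. The libraries did not overlap for 5 of 9 members, Cd9 among the higher and S1pr3 among the lower besides these 3, and for 19.3% of all genes (10.2% higher, 9.12% lower). Against IM156 alone, Plac8 was higher and Cd55 lower, 2 of 9 beside 2.47% of all genes (1.74% higher, 0.734% lower). Here the libraries did not overlap for Plac8, Cr2, Myof, Fcer2a and Cd55, 5 of 9 members, and for 24.6% of all genes. The fitted values of Fcer2a, Cr2 and Myof against IM156 were -0.20, -0.19 and -0.23, and none passed the test (edgeR adjusted p = 0.402, 0.678 and 0.57). Averaged over both IM156 states, 6 libraries with ODN against 6 without, Plac8 rose (log2 fold change 0.85, SE 0.09, edgeR adjusted p = 1.91e-06) and Cd55, Fcer2a and Myof fell (-0.56, -0.40 and -0.44, edgeR adjusted p = 3.52e-05, 0.00102 and 0.0139). That was 4 of 9 members, beside 12.2% of all genes (8.09% higher, 4.09% lower), 959 genes higher and 485 lower. Scaling by library totals alone gave 792 higher and 888 lower and called 5 members. S1pr3, at -0.37, did not pass in this average (edgeR adjusted p = 0.0536). It was -0.27 without ODN replicate 1. It passed with library totals alone, no filter, DESeq2 and the robust fit (adjusted p = 0.0261, 0.00848, 0.0349 and 0.0428), and without control replicate 3 (-0.43, adjusted p = 0.0339) or ODN replicate 3 (-0.48, adjusted p = 0.00481), as did Cr2 without ODN replicate 2 (-0.40, adjusted p = 0.0232) or ODN replicate 3 (-0.36, adjusted p = 0.0395). These comparisons share libraries and are not independent of each other.

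**Figure D3:**
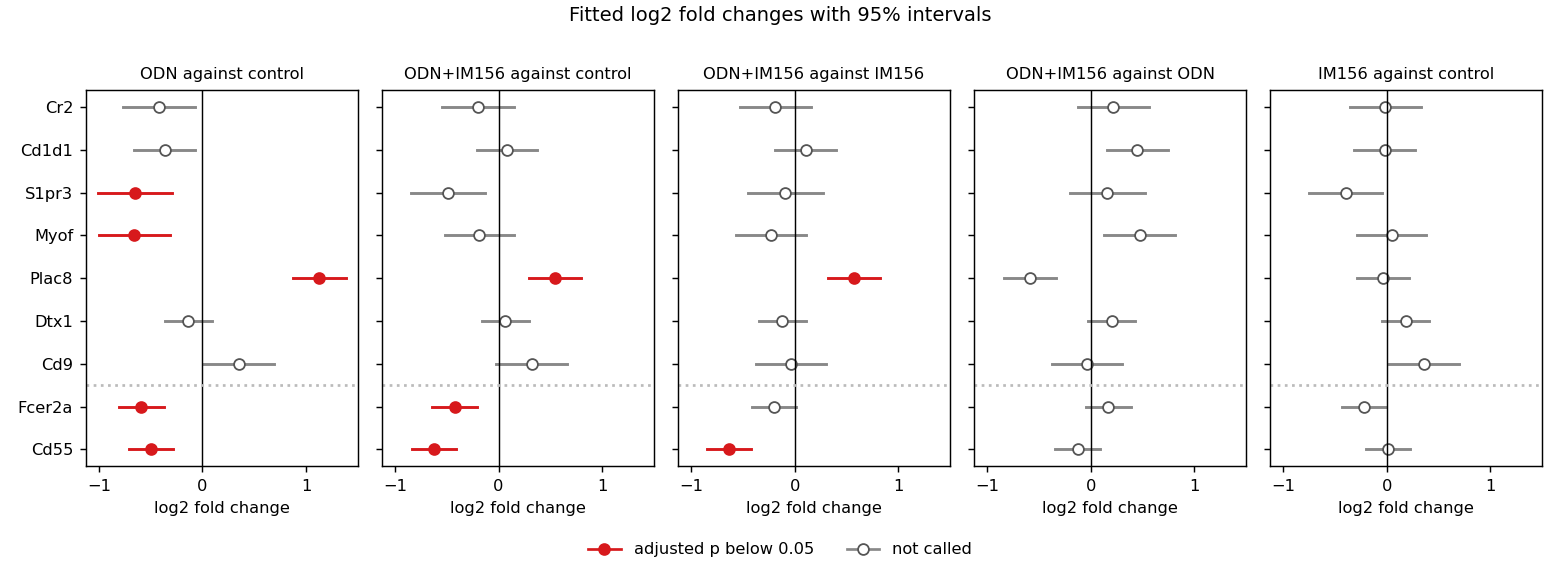
Fitted log2 fold change of each member with its 95% interval (linear axis) in 5 comparisons, filled red where edgeR's adjusted p was below 0.05, with marginal zone members above the dotted line and follicular members below it. Plac8 lies above 0 and Cd55 below 0 in the 3 comparisons of libraries with ODN against libraries without it, and no member is called in ODN+IM156 against ODN or in IM156 against control.

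IM156 alone left no member called. In IM156 against control libraries, edgeR's test called 0 of the 9 members and 0% of all genes, DESeq2 called 0 members and 2 genes, and 439 genes, among them 3 members, had an unadjusted p below 0.05. Those 3 were S1pr3 at a log2 fold change of -0.40 (95% interval -0.75 to -0.04), Fcer2a at -0.22 (-0.44 to -0.01) and Cd9 at 0.36 (0.02 to 0.70), all with an edgeR adjusted p of 0.999. Without control replicate 1 the 3 values were -0.29, -0.06 and 0.25. The intervals of Cr2, -0.36 to 0.33, Plac8, -0.29 to 0.22, and Cd55, -0.20 to 0.23, contained 0. All 3 IM156 libraries lay above all 3 control libraries for Dtx1 and Cd9 and below them for S1pr3, 3 of 9 members, where 10.4% of all genes had groups that did not overlap (5.16% higher, 5.25% lower).

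IM156 added to ODN changed no member at the adjusted threshold. In ODN+IM156 against ODN libraries, edgeR called 0 of 9 members and 0.0675% of all genes (0.0506% higher, 0.0169% lower), while 3 members and 1919 genes had an unadjusted p below 0.05 and DESeq2 called 367 genes, among them Plac8. Plac8 was lower in all 3 ODN+IM156 libraries than in any ODN library, with a log2 fold change of -0.59 (SE 0.12, 95% interval -0.84 to -0.33, edgeR adjusted p = 0.0619). That p was 0.00132 without ODN replicate 3, and Plac8 was not called in the other 11 refits without 1 library, with a log2 fold change of -0.42 without ODN replicate 1. It passed with no filter (adjusted p = 8.83e-07), in the robust fit (0.0381) and with DESeq2 (0.000691), but not with a replicate block or with only these 6 libraries. Cd1d1 and Fcer2a were higher in all 3 ODN+IM156 libraries than in any ODN library, at 0.45 and 0.17 (edgeR adjusted p = 0.113 and 0.445). With Plac8 that made 3 of 9 members whose groups did not overlap, beside 19.1% of all genes. For Cr2 the value was 0.22, and without ODN replicate 1 it was -0.04. In the test of the difference between the IM156 effects with and without ODN, edgeR called 0 members and 0% of all genes, DESeq2 called 0 members and 154 genes, and 4 members and 1453 genes had an unadjusted p below 0.05. Plac8 had the lowest p of the members in it (log2 difference -0.55, SE 0.17, unadjusted p = 0.00421 and adjusted p = 0.2 with edgeR), and without ODN replicate 3 it passed (-0.67, edgeR adjusted p = 0.0291).

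Ratios of raw counts within a library do not depend on the scaling between libraries. The count of Plac8 over that of Cr2 was 0.404, 0.473 and 0.38 in ODN+IM156 libraries, 1.46, 0.573 and 0.52 in ODN libraries, 0.247, 0.248 and 0.246 in IM156 libraries and 0.23, 0.254 and 0.272 in control libraries. These 2 marginal zone markers therefore moved apart in every library with ODN, most in ODN replicate 1, and the ranges of ODN, of ODN+IM156 and of the libraries without ODN did not overlap. The count of Cr2 over that of Fcer2a, the transcripts of CD21 and CD23, was 8.6, 9.47 and 9.33 in ODN+IM156 libraries, 5.16, 11.6 and 9.94 in ODN libraries, 8.88, 9.17 and 9.1 in IM156 libraries and 7, 8.63 and 8.12 in control libraries. ODN replicates 2 and 3 lay above all control libraries and ODN replicate 1 below them, so that the sign of this ratio's change depended on the library. The count of Myof over that of Cr2 was 0.0238, 0.0259 and 0.0262 in ODN+IM156 libraries, 0.0226, 0.0218 and 0.0198 in ODN libraries, 0.0258, 0.0249 and 0.0276 in IM156 libraries and 0.021, 0.0273 and 0.0275 in control libraries. Here ODN replicate 1 did not stand apart, and the ODN range overlapped that of control.

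**Figure D4:**
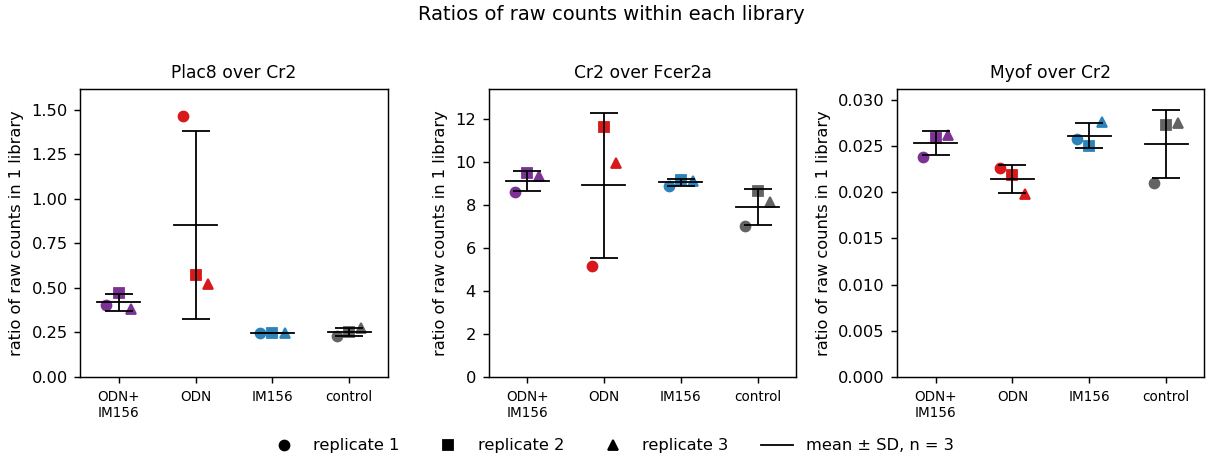
Ratios of raw counts of member pairs in each library (linear axes from 0), by group, with horizontal lines for the mean ± SD of 3 libraries. The ratio of Plac8 to Cr2 is 0.38 or more in every library with ODN and 0.272 or less in every library without it, and the ratio of Cr2 to Fcer2a spans 5.16 to 11.6 within the ODN group.

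Of 14 further marginal zone genes tested, the single gene called in ODN against control, where 10.6% of all genes were called, was Fcrl5, an Fc receptor-like protein of marginal zone and B-1 cells. It averaged 49.8 ± 12.6 CPM in ODN+IM156, 55.2 ± 6.22 CPM in ODN and 32.5 ± 4.68 CPM in control libraries, with log2 fold changes of 0.61 and 0.76 against control (edgeR adjusted p = 0.0478 and 0.00262). The median log2 fold change of the 14 was 0.08 in ODN against control. In the averaged ODN effect 3 of the 14 were called, all higher: Fcrl5, Asb2 and Cd36. That effect was called for 12.2% of all genes, 8.09% higher and 4.09% lower. Among the further follicular genes reported here, Fcrl1 was higher and the transcription factor Ets1 lower in ODN than in control, and neither was called in ODN+IM156 against control. The median log2 fold change of the list of further follicular genes was -0.06 in ODN against control, where it was -0.005 over all genes. The lists of further genes, like the members, were assembled with earlier results of these data known.

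Of the 28 Notch pathway genes tested in ODN against control, 2 were higher and 1 lower, a share close to the 10.6% of all genes called there. Notch1 had 25.6 ± 9.49 CPM in ODN and 10.5 ± 1.89 CPM in control libraries (log2 fold change 1.27, edgeR adjusted p = 0.001), and Aph1a, a gamma-secretase subunit, was higher by 0.40 (edgeR adjusted p = 0.0386). In ODN replicates 1, 2 and 3 Notch1 stood at 36.45, 18.89 and 21.43 CPM. Mib1, a ligase acting on Notch ligands, was lower, at 0.63 CPM in ODN libraries and 1.92 CPM in control libraries, a level of few counts (edgeR adjusted p = 0.0476). Notch2, the receptor that marginal zone B cells need, had 256 ± 9.63 CPM in ODN and 250 ± 40.8 CPM in control libraries (log2 fold change 0.04, edgeR adjusted p = 0.865). None of the 28 was called in ODN+IM156 against control.

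Of 29 regulators of the choice between the subsets, 2 were higher and 2 lower in ODN than in control, beside 10.6% of all genes called. In the averaged ODN effect Id2 and Irf8 were higher and Klf2, Klf3 and Irf4 lower, beside 8.09% of all genes called higher and 4.09% lower. Id2, an inhibitor of E-protein transcription factors, had 126 CPM on average in ODN+IM156, 150 ± 17.6 CPM in ODN and 91.4 ± 2.91 CPM in control libraries, with log2 fold changes of 0.46 and 0.71 against control (edgeR adjusted p = 0.0235 and 0.000188). Irf8, an interferon regulatory factor of B cells, averaged 1049 CPM in ODN+IM156, 971 CPM in ODN and 754 CPM in control libraries and was higher in both (edgeR adjusted p = 0.00346 and 0.00767). Id3, another inhibitor of E proteins, fell to 82.4 CPM in ODN, against 117 CPM in control libraries (edgeR adjusted p = 0.0136). Ptk2b, a kinase that marginal zone B cells need in mice, fell to 217 ± 3.46 CPM in ODN, against 263 ± 28 CPM in control libraries (log2 fold change -0.28, edgeR adjusted p = 0.0441).

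Among 20 genes of position and retention in the spleen, Ccr6 and Itgb1 were higher and S1pr2, Itga4, Itgb7 and Arhgef1 lower in ODN than in control. In that comparison 10.6% of all genes were called, 7.34% higher and 3.25% lower. In ODN+IM156 against control the single gene of these that was called was Gpr183, the receptor that guides B cells to the outer follicle, with 126 CPM in ODN+IM156 and 165 CPM in control libraries (log2 fold change -0.39, edgeR adjusted p = 0.0416). There 1.59% of all genes were called, 0.337% as lower. Of 8 complement receptors and regulators tested other than the members, Cfp, which encodes properdin, was higher (log2 fold change 0.80, edgeR adjusted p = 0.000487) and C3ar1, the receptor for C3a, lower (-1.28, edgeR adjusted p = 0.00352) in ODN than in control. No gene of these lists was called in IM156 against control.

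The genes whose levels over the 12 libraries were most like those of Plac8, by the root-mean-square difference of centred log2 CPM, were Kpna2, 1500012F01Rik and Mcm6, at 0.14, 0.14 and 0.16, against a standard deviation of 0.51 for Plac8 itself. Those most like Cr2 (standard deviation 0.32) were Prmt2, Dph5 and Ccdc107 at 0.10, 0.11 and 0.12, and those most like Fcer2a (0.25) were Sdc1, Acsl3 and Neurl3 at 0.10, 0.10 and 0.11. These distances were taken over libraries that include ODN replicate 1, the lowest library for Cr2.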

How the data were processed

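Counts of 3′ end reads per gene in 12 libraries (QuantSeq 3′ mRNA kit, per the labels) were taken from the table the authors deposited, as raw counts. Per the submitters' processing notes the tools were Bowtie2, bedtools and edgeR with GRCm38 (mm10); versions, annotation and the strand rule of counting are not given in the sources used here. The table's 12 columns of normalized values were not used. Members were matched by gene symbol and placed on GRCm38 with GENCODE M21; genes on the opposite strand overlap S1pr3, Cd9 and Cd55, none at a member's 3′ end.

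The tests used edgeR 4.0.16 (R 4.3.3): filterByExpr with default settings, TMM scaling, and 1 quasi-likelihood fit with 1 mean per group to all 12 libraries (8 residual degrees of freedom), two-sided tests, and Benjamini-Hochberg adjustment over all genes tested in each of 7 comparisons. Calls needed an adjusted p under 0.05. Standard errors were derived from the F statistic, and 95% intervals from the same fit; they cover the spread between libraries. The ODN group varied most, and the fit takes 1 spread per gene over all groups. DESeq2 1.42.0, other scalings, no filter, a fit of only the groups compared, a robust fit, a replicate block, leaving out Rn45s and leaving out each library were alternatives. The median count of a tested gene was 258 per library; reads carry no molecular identifiers. The analysis was tested on simulated data. The members and lists were chosen with earlier results of these data known. All 9 members were named, and other genes where a list's call turned on them; for Plac8, Cr2 and Fcer2a the 3 genes most like each were named. The result of 1 gene of the list of further follicular genes is not reported here.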

Additional observations from a re-analysis of the deposited data

Results flagged for a closer look

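For 4 members, groups moved in opposite directions in every library, and none of these differences passed the test of the difference itself. The share of all genes with such a pattern was not computed, so that this count has no background to be read against. Cd1d1 was lower in all ODN libraries than the control mean, whereas in all ODN+IM156 libraries it was higher than the IM156 mean. The difference between the ODN effects with and without IM156 was 0.47 on the log2 scale (edgeR adjusted p = 0.334), or 0.27 without ODN replicate 1. S1pr3 and Fcer2a were higher in all ODN+IM156 libraries than the ODN mean and lower in all IM156 libraries than the control mean, and Cd9 went the opposite way, with log2 differences between the IM156 effects with and without ODN of 0.56 for S1pr3, 0.39 for Fcer2a and -0.39 for Cd9 (edgeR adjusted p = 0.358, 0.277 and 0.523). For S1pr3 the pattern rests on ODN replicate 1: without it the log2 fold change of ODN+IM156 against ODN was -0.03, against 0.16 with it, and the difference between the IM156 effects was 0.38. For Cd9 it rests on ODN replicate 2, without which ODN+IM156 against ODN was 0.14, against -0.03 with it, and the difference was -0.22. For Fcer2a the difference was 0.23 without control replicate 1.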

How the results depend on the processing

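No member that passed the test changed direction under any alternative. In ODN against control, fitting only those 2 groups called 3 members and 598 genes, and leaving out 1 library gave 3 to 7 members and 763 to 1874 genes. In ODN+IM156 against control, 531 genes were called with no filter, 324 by DESeq2 and 396 with only those groups; without 1 library, 1 to 3 members and 88 to 353 genes. In ODN+IM156 against IM156, 652 genes were called with no filter and 892 with only those groups; without 1 library, 1 to 2 members and 114 to 543 genes. In IM156 against control, 53 genes were called with no filter, 2 by DESeq2, 6 with only those groups and 0 to 1 without 1 library, and in each case 0 members. In ODN+IM156 against ODN, 3 members and 664 genes were called with no filter, 1 and 367 by DESeq2, 1 and 124 by the robust fit, 0 and 1 with only those groups, and 0 to 2 members and 1 to 794 genes without 1 library. For the averaged ODN effect, leaving out 1 library gave 4 to 6 members and 1029 to 1873 genes. For the interaction, 1 member and 276 genes were called with no filter, 154 genes by DESeq2, and 0 to 1 members and 0 to 260 genes without 1 library. The cause of these shifts was not tested.

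A fit with the replicate number as a block called 1155 genes in ODN against control, 171 in ODN+IM156 against control, 292 in ODN+IM156 against IM156, 0 in IM156 against control, 3 in ODN+IM156 against ODN, 1372 for the averaged effect and 0 for the interaction, with the same members called as without it. Same-numbered libraries did not deviate together: 0 of 18 correlations of their deviations were over 0.1 (-0.1 to 0.0789). With 3 libraries a group and a wide spread in the ODN group, the spread between libraries, not depth, limits the precision, although S1pr3 and Cd9 had as few as 149 and 176 counts.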

Other observations

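Of the lists for other B-cell states, the 10 germinal centre genes held 2 that were lower in ODN than in control, S1pr2 and Basp1, with a median log2 fold change of -0.54 for the list. In this comparison 3.25% of all genes were called lower and 7.34% higher. Of the 6 transitional B-cell genes tested, Vpreb3 was lower, and of the 9 plasma cell genes tested edgeR called 0. Of the 5 B-1 cell genes, Bhlhe41, a transcription factor of B-1a cells, was higher in ODN, at 27.6 ± 10.6 CPM, than in control, at 13.8 ± 3.12 CPM (log2 fold change 1.00, edgeR adjusted p = 0.00881). Its level was 39.47, 24.13 and 19.04 CPM in ODN replicates 1, 2 and 3. No gene of these lists was called in IM156 against control.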
